A study of Mus musculus with 2 samples.

Results

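A set of 9 genes of neurotrophin and GDNF signalling were followed in single hippocampal Cajal-Retzius (CR) cells, the Reln-secreting neurons that line the hippocampal fissure and mostly die after birth. The 9 genes were chosen by name out of 32285 in the files: the neurotrophin receptors *Ngfr*, *Ntrk2*, *Ntrk3* and *Sort1*, the neurotrophins *Bdnf* and *Ntf3*, and the GDNF family receptors *Gfra1*, *Gfra2* and *Ret*. They were measured in barcodes with at least 2000 unique molecular identifiers (UMIs, each standing for 1 captured RNA molecule) and at least 5 *Reln* UMIs. These were 1003 control and 390 knockout cells. The cells were sorted by their red fluorescent reporter from the hippocampus of mice at postnatal day 14. Control mice were *ΔNp73-Cre; Cic flox/+; tdT* and knockout mice were *ΔNp73-Cre; Cic flox/flox; tdT*, so both groups carried the Cre and the reporter, both had at least 1 floxed allele of the transcriptional repressor *Cic*, and controls kept 1 allele that Cre does not delete. *ΔNp73-Cre* acts in the lineage of hippocampal CR cells. The study found CIC lost from most but not all hippocampal CR cells of this knockout line, so some knockout cells may have kept it. Each library pooled 4 littermates, 3 males and 1 female in the control and 2 males and 2 females in the knockout. With 1 library per genotype no test between genotypes is possible, and all intervals below are 95% intervals that cover counting error only.

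Neurotrophins are secreted proteins that keep neurons alive and shape their synapses. BDNF binds the receptor tyrosine kinase TrkB (encoded by *Ntrk2*) and neurotrophin-3 binds TrkC (*Ntrk3*), while p75 (*Ngfr*) and sortilin (*Sort1*) together bind the uncleaved pro-neurotrophins and can start cell death. GDNF family ligands bind a GPI-anchored subunit (*Gfra1* for GDNF, *Gfra2* for neurturin), which then engages the tyrosine kinase RET or, for GDNF, the adhesion molecule NCAM. CR cells are a population in which survival and death during development are of special interest, and CIC is a repressor whose target genes lie downstream of receptor tyrosine kinases.

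The cells held a median of 6224 (control) and 6664 UMIs (knockout), 6981296 and 2937321 UMIs in all, and no cell barcode was shared between the libraries. All 8 CR markers checked, *Reln* and *Trp73* among them, had a UMI in at least 25% of cells in both. Markers of other cell types were in under 25% of cells, apart from *Slc1a2*, *Cspg4* and *Rgs5*. *Slc1a2* (astrocytes) was in 35.5% of control and 32.8% of knockout cells. *Cspg4* (oligodendrocyte precursors) was in 30.3% and 37.9%, and *Rgs5* (mural cells) in 31.8% and 30.3%. The 7 astrocyte markers summed to 103 counts per 1000000 (CPM) in the control and 88.9 in the knockout, mostly *Slc1a2*, and the 7 markers of GABAergic neurons summed to 2.88 and 1.81 CPM. CPM here is the sum of a gene's UMIs over the cells per 1000000 UMIs outside mitochondrial and ribosomal protein genes. *Cic* itself was at 58.9 CPM (53.2 to 65.1) in the control and 51.3 CPM (43.2 to 60.5) in the knockout, and UMIs near a gene's 3′ end need not lie in the deleted part, so this does not check the deletion. A total of 78 control and 29 knockout cells had at least 2% of their UMIs in 98 nuclear genes of the respiratory chain. The share was taken of UMIs outside mitochondrial and ribosomal protein genes, and these cells are called rich in respiratory genes below. Droplets with 20 to 100 UMIs, 29040 in the control and 75813 in the knockout, gave the level of free RNA.

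*Ntrk2* and *Gfra1* were found in at least 85.3% of CR cells of either library, *Sort1* in 54.9% and 52.3% and *Ntrk3* in few, and *Ngfr* and *Ret*, a death receptor and a signalling subunit, were at or near 0. *Ntrk2* and *Gfra1* together made up 89.9% of the 12645 UMIs of the 9 genes in the control and 91.2% of 5175 in the knockout. The order of the 4 abundant genes was the same in both libraries, and their intervals did not overlap in either. These are UMIs, counted once per molecule at the 3′ end and not divided by gene length, and capture can differ between genes.

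**Figure D1:**
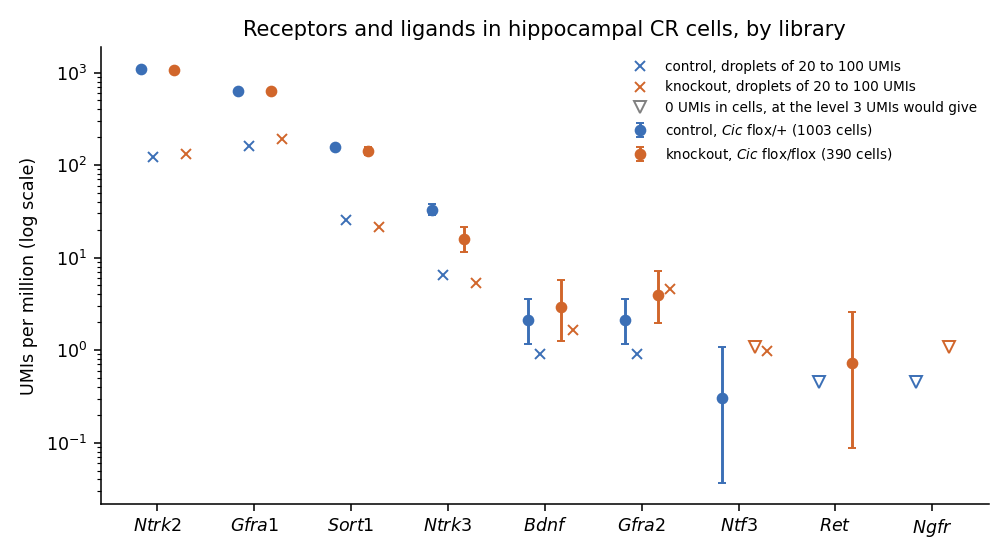
CPM of the 9 genes (log scale) in control and knockout CR cells, as points with 95% Poisson intervals, and in droplets of 20 to 100 UMIs, as crosses. Open triangles mark genes with 0 UMIs in the cells and stand at the level that 3 UMIs would give, and a missing cross is 0 UMIs in droplets. *Ntrk2*, *Gfra1*, *Sort1* and *Ntrk3* lie above their droplet level in both libraries, and *Ntrk3* is the gene of these 4 whose 2 library values lie apart.

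*Ntrk2* lies on chromosome 13 of GRCm38 from 58806569 to 59133970 on the plus strand. It was at 1085 CPM in the control (7166 UMIs, 1060 to 1111) and 1078 CPM in the knockout (2982 UMIs, 1040 to 1118). Its level in droplets was 122 and 130 CPM. A cell held between 0 and 39 *Ntrk2* UMIs in the control with a median of 6, and between 0 and 37 in the knockout with a median of 7. A UMI was found in 98.3% of control cells (97.3% to 99.0%) and 99.5% of knockout cells (98.2% to 99.9%). Because deeper cells show more genes, every cell was also thinned at random to 2000 UMIs, which left out no cell, and the shares were then 83.4% (81.0% to 85.7%) and 83.8%. Among droplets the share with an *Ntrk2* UMI was 0.861% and 0.480% at median depths of 89 and 44 UMIs. *Ntrk2* RNA was thus detected in nearly every CR cell of either genotype. The gene has 7 coding transcripts with 6 different 3′ ends in GENCODE, among them forms with and without the kinase domain, and the counts do not separate them.

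*Ngfr*, on chromosome 11 from 95568818 to 95587735 on the minus strand, had 0 UMIs in all 1003 control and all 390 knockout cells, which allows a share of cells with a UMI of up to 0.299% and, in the knockout, up to 0.769%. It had 0 UMIs in the droplets as well. The stretch of promoter of the receptor found in nearly every cell and that of the receptor found in none are shown side by side, from 250 to 51 bases before the RefSeq start site on GRCm38.p6, 5′ to 3′ on the strand of the gene, with CpG dinucleotides in capitals.
Ntrk2, chr13:58806319-58806518, plus strand: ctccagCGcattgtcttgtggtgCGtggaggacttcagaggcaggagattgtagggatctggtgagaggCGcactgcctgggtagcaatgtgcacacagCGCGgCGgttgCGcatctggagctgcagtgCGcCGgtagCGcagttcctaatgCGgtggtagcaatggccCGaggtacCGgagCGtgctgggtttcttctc
Ngfr, chr11:95587749-95587948, minus strand: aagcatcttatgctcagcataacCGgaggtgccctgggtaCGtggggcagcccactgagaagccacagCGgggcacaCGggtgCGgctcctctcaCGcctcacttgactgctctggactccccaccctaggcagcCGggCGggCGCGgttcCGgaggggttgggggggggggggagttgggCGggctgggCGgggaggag
Both stretches are rich in CpG, with 14 in the first and 13 in the second, and 61% and 70% of their bases are G or C. RefSeq promoters, from 250 bases before to 50 bases after the start, were found for 5 of the 9 genes (*Ngfr*, *Ntrk2*, *Bdnf*, *Ntf3* and *Gfra1*, 12 promoters in all). The octamers that CIC is known to bind, TGAATGAA, TGAATGGA, TCAATGAA and TCAATGGA, were searched on both strands. They were in 0 of the 12, and in 3.84% of 32851 promoters of all genes. No match says only that these letters are not in these windows.

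*Sort1*, on chromosome 3 from 108284082 to 108361511 on the plus strand, was at 156 CPM in the control (1032 UMIs, 147 to 166) and 141 CPM in the knockout (391 UMIs, 128 to 156), against 25.2 and 21.4 CPM in droplets. Sortilin also sorts proteins inside the cell, apart from its part in neurotrophin signalling. A UMI was found in 54.9% of control and 52.3% of knockout cells, and in 25.02% and 23.8% after thinning. The median cell held 1 UMI in both libraries and the highest 8 in the control and 10 in the knockout. Among thinned control cells with *Ntrk2* or *Ntrk3*, 25.2% had *Ngfr* or *Sort1* (22.3% to 28.3%), and among those without, 24.1% did (17.6% to 31.5%). In the knockout these were 23.5% and 25.8%. All of these cells had *Sort1* and none *Ngfr*, and nearly all cells with a Trk receptor had *Ntrk2*. By *Ntrk3* alone, *Sort1* was found in 39.2% of the 102 control cells with it (29.7% to 49.4%) and in 56.7% of those without (53.4% to 60.0%), and after thinning in 14.8% (6.62% to 27.1%) and 25.6% (22.9% to 28.5%). In the knockout it was found in 64% of the 25 cells with *Ntrk3* (42.5% to 82.0%) and in 51.5% of those without (46.2% to 56.7%).

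*Ntrk3*, on chromosome 7 from 78175959 to 78738012 on the minus strand, was the rare one of the Trk receptors. It was at 32.9 CPM in the control (217 UMIs, 28.6 to 37.5) and 15.9 CPM in the knockout (44 UMIs, 11.6 to 21.4), and at 6.43 and 5.27 CPM in droplets. The 217 control UMIs were in 102 of 1003 cells (10.2%) and the 44 knockout UMIs in 25 of 390 (6.41%). The intervals of these shares were 8.37% to 12.2% and 4.19% to 9.32%. After thinning the shares were 5.38% (4.07% to 6.97%) and 2.31% (1.06% to 4.34%). The intervals of the 2 libraries thus overlapped for the share of cells, before and after thinning, though not for CPM. Of the 102 control cells, 49 held 1 UMI, 24 held 2 and 29 held 3 or more, with 11 in the highest. Of the 25 knockout cells, 17 held 1 UMI, 3 held 2 and 5 held 3 or more, with 8 in the highest. *Ntrk3* overlaps 1 other counted gene on its own strand and 2 on the other, so a part of its count is uncertain where strand and gene could not be told apart.

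The neurotrophins were near the limit of detection. *Bdnf* had 14 UMIs in 13 control cells and 8 UMIs in 6 knockout cells, or 2.12 and 2.89 CPM, against 0.918 and 1.65 CPM in droplets. *Ntf3*, the ligand of TrkC, had 2 UMIs in 2 control cells and 0 in the knockout, where up to 0.769% of cells could still hold a UMI. *Bdnf* is transcribed on neuronal activity, and cells were therefore split in each library at the median share of 8 activity-induced genes such as *Fos*, *Egr1* and *Npas4*. In the control, 10 *Bdnf* UMIs were in the 501 cells above that median and 4 in the 502 others. In the knockout, 3 were above and 5 were not. With so few UMIs no relation could be read from this split.

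*Gfra1*, on chromosome 19 from 58235604 to 58455909 on the minus strand, was at 636 CPM in the control (4200 UMIs, 617 to 656) and 628 CPM in the knockout (1737 UMIs, 599 to 658). Its droplet level was the highest of the 9 genes, at 161 and 191 CPM. A UMI was found in 85.3% of control and 89.0% of knockout cells, and in 61.7% (58.6% to 64.7%) and 58.7% after thinning. The median cell held 3 UMIs in both libraries, while the highest held 33 in the control and 50 in the knockout. *Gfra2* had 14 UMIs in 14 control cells and 11 in 11 knockout cells (2.12 and 3.98 CPM, with 0.918 and 4.61 CPM in droplets). Its knockout CPM was thus no higher than in droplets, but droplets hold few UMIs. A knockout cell with the free RNA of a median droplet would hold 0.000179 free *Gfra2* UMIs. *Ret* had 0 UMIs in control cells (a share of at most 0.299%) and 2 UMIs in 2 knockout cells, where droplets had 0. The binding subunit was thus found without the kinase that it engages. *Gfra1* or *Gfra2* was detected in 85.4% of the 1003 control cells without *Ret* and in 89.2% of the 388 knockout cells without *Ret*. Both knockout cells with *Ret* also had *Gfra1* or *Gfra2*.

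*Ncam1*, which encodes the other partner of the GDNF-bound subunit, was at 750 and 774 CPM in control and knockout cells and had a UMI in 95.3% and 96.7% of cells. In thinned control cells *Ncam1* was found in 72.4% of those with *Gfra1* (68.7% to 75.9%) and in 73.7% of those without (69.0% to 78.0%). In the knockout the shares were 71.2% and 72.7%. *Gfra1* itself was found in 61.4% of thinned control cells with *Ntrk2* and in 63.3% of those without, and in 58.4% and 60.3% in the knockout. The intervals of each pair overlapped, so no preference of *Gfra1* for cells with *Ncam1* or with *Ntrk2* could be shown with these counts.

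Among themselves the cells varied more in *Gfra1* than in *Ntrk2*. The variance of thinned counts divided by their mean, which is close to 1 for counting noise alone, was 1.73 for *Gfra1* in the control and 1.70 in the knockout. It was 1.33 and 1.30 for *Ntrk2*, 1.11 and 1.24 for *Sort1*, and 1.74 and 1.18 for *Ntrk3*. The median over all genes measured in this way was 1.08 (control) and 1.09 (knockout), and 97.2% and 96.3% of those genes lay below *Gfra1*. These genes were not matched for abundance, and a rare gene lies near 1 in any case, such as *Bdnf* at 0.998 in the control. *Gfra1* had means of 1.26 (control) and 1.20 (knockout) UMIs per thinned cell. The tenth of cells richest in *Gfra1* held 36.4% of its thinned UMIs in both libraries. No gene correlated with a receptor at r of at least 0.3 across cells in both libraries (5765 genes, 925 control and 361 knockout cells outside the respiratory-gene-rich ones). The highest value in the control was 0.306 for *Gfra1* with *Cacna2d3*, a calcium channel subunit, at 0.257 in the knockout. *Ntrk3* reached 0.276 with *Cck* among control cells and 0.311 among knockout cells, but 0.301 and 0.08 with *Ptprm*. These are descriptions over cells of 1 library each, which share their depth and their free RNA.

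**Figure D2:**
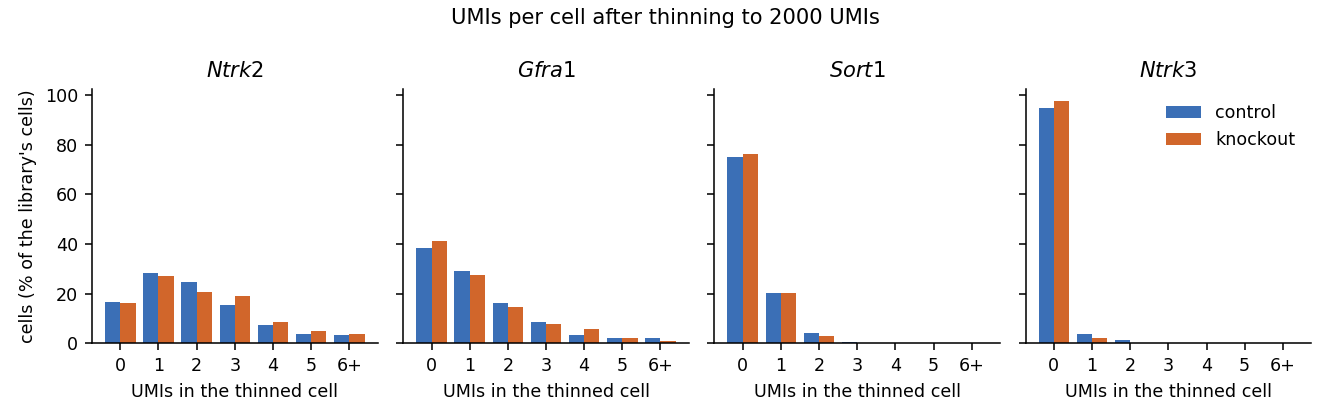
Share of the cells of each library (y axis, percent) by the number of UMIs of a gene in the cell after thinning to 2000 UMIs (x axis, 6 or more pooled). *Ntrk2* and *Gfra1* spread over 0 to 6 or more UMIs in both libraries, 20.3% of cells hold 1 *Sort1* UMI in either, and 94.6% of control and 97.7% of knockout cells hold no *Ntrk3*.

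The receptors were next compared between cells by *Cck* and *Grik1*, which the study used as markers of CR subtypes, and by *Chst8* or *Alkal2*, which were chosen from earlier results of these data. *Cck* encodes a neuropeptide, *Grik1* a kainate receptor subunit, *Chst8* a sulfotransferase and *Alkal2* a ligand of the receptor ALK. A cell was called positive with at least 1 UMI. *Cck*-positive cells numbered 324 in the control and 110 in the knockout. Those positive for *Grik1* numbered 194 and 70, and those positive for *Chst8* or *Alkal2* numbered 232 and 91. Free RNA of the markers can make a cell positive, since *Cck* was at 155 CPM in control cells and 130 CPM in control droplets, so each contrast may be diluted. Droplets hold few UMIs, however, and 0.940% of control droplets had a *Cck* UMI, against 32.3% of control cells. When positive cells needed 2 *Cck* UMIs, the control ratio of *Ntrk3* given below was 7.04 (5.03 to 9.98). A gene was called past the fold at a ratio of at least 1.5 in either direction among genes with at least 100 UMIs in both groups together, and the same was counted over all such genes.

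*Cck*-positive cells held most of the *Ntrk3* RNA. Control *Cck*-positive cells had 166 *Ntrk3* UMIs (72.5 CPM, 61.9 to 84.5) and *Cck*-negative cells 51 (11.8 CPM, 8.80 to 15.5), a 6.14-fold difference (4.46 to 8.57). Knockout *Cck*-positive cells had 39 UMIs (49.0 CPM) and *Cck*-negative cells 5 (2.54 CPM), or 19.3-fold (7.61 to 62.8), on fewer UMIs than the minimum of 100. A UMI was found in 21.9% of *Cck*-positive and 4.57% of *Cck*-negative control cells, whose median depths were 6397 and 6148 UMIs, and in 18.2% and 1.79% of knockout cells. In CPM, the *Ntrk3* level of control *Cck*-negative cells was thus above that of droplets (6.43), while that of knockout *Cck*-negative cells was not (5.27). A knockout cell with the free RNA of a median droplet would hold 0.000204 free *Ntrk3* UMIs. The CPM values alone thus do not mark these 5 UMIs as free RNA. Of the 4 genes of the set with enough UMIs in the control, only *Ntrk3* was past the fold there, where 5.06% of 8303 genes were. None of the 3 genes with enough UMIs was past it in the knockout, against 8.25% of 5225.

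*Gfra1* was also higher in *Cck*-positive cells of both libraries, by less than the fold, though some alternative settings given below put it past the fold. It was at 792 against 554 CPM in the control (ratio 1.43, 1.34 to 1.52) and at 798 against 559 CPM in the knockout (1.43, 1.29 to 1.57). *Sort1* was lower, at 127 against 172 CPM in the control (0.740) and 104 against 156 CPM in the knockout (0.667, just inside the fold). *Ntrk2* did not differ beyond counting error, with ratios of 1.03 (0.980 to 1.08) and 1.00 (0.925 to 1.08). *Cck*-positive and *Cck*-negative cells thus differed in *Ntrk3*, *Gfra1* and *Sort1* in the same directions in both libraries and shared their *Ntrk2* level.

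**Figure D3:**
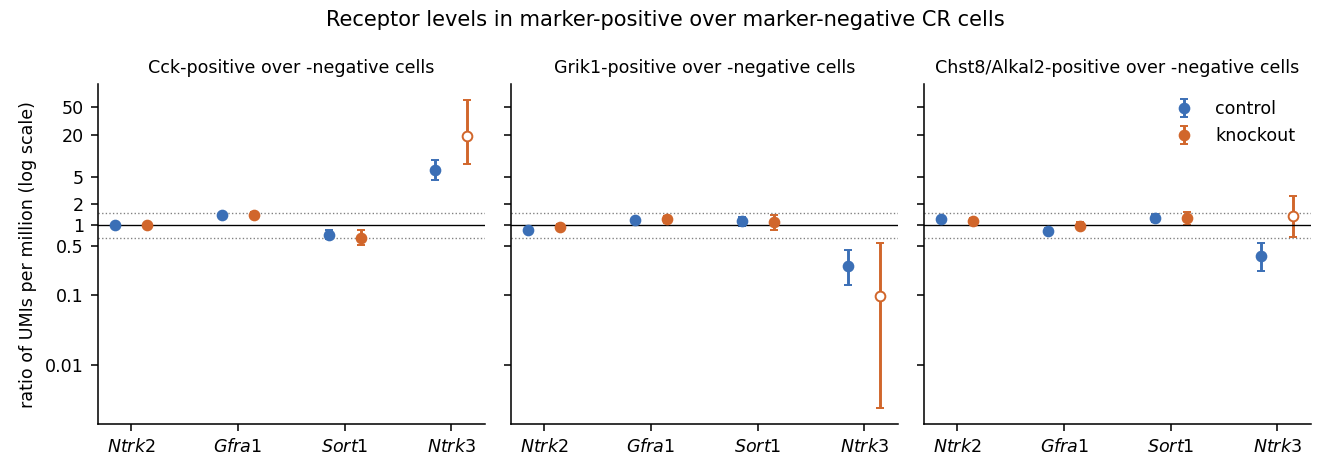
Ratio of CPM (log scale) between positive and negative cells for *Cck*, *Grik1* and *Chst8* or *Alkal2*, for 4 receptors in each library, with exact 95% intervals. Dotted lines mark 1.5-fold, and open points rest on fewer than 100 UMIs. *Ntrk3* lies far above 1 for *Cck* in both libraries and below 1 for *Grik1*, and the other 3 receptors lie between the dotted lines.

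Cells were also grouped by their number of *Cck* UMIs, a grouping chosen after the values above were seen, and *Ntrk3* was highest where *Cck* was highest. Control *Ntrk3* was at 11.8 CPM in the 679 cells without *Cck*, 55.5 CPM in the 128 with 1 *Cck* UMI, 50.1 CPM in the 108 with 2 or 3, and 120 CPM in the 88 with 4 or more. In the knockout it was at 2.54, 25.4, 38.9 and 83.6 CPM in 280, 43, 40 and 27 cells. The last 27 cells held 22 *Ntrk3* UMIs, 8 of them in the 1 cell rich in respiratory genes. Of the control cells with 4 or more *Cck* UMIs, 31.8% had *Ntrk3*, and 33.3% of the knockout cells did. *Gfra1* went from 554 to 860 CPM over the same groups in the control and from 559 to 847 CPM in the knockout. *Ntrk2* lay between 1074 and 1131 CPM in the 4 control groups. Cells with 4 or more *Cck* UMIs were also the deepest, with medians of 6548 UMIs in the control and 8855 in the knockout, against 6148 and 6650 in cells without *Cck*.

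**Figure D4:**
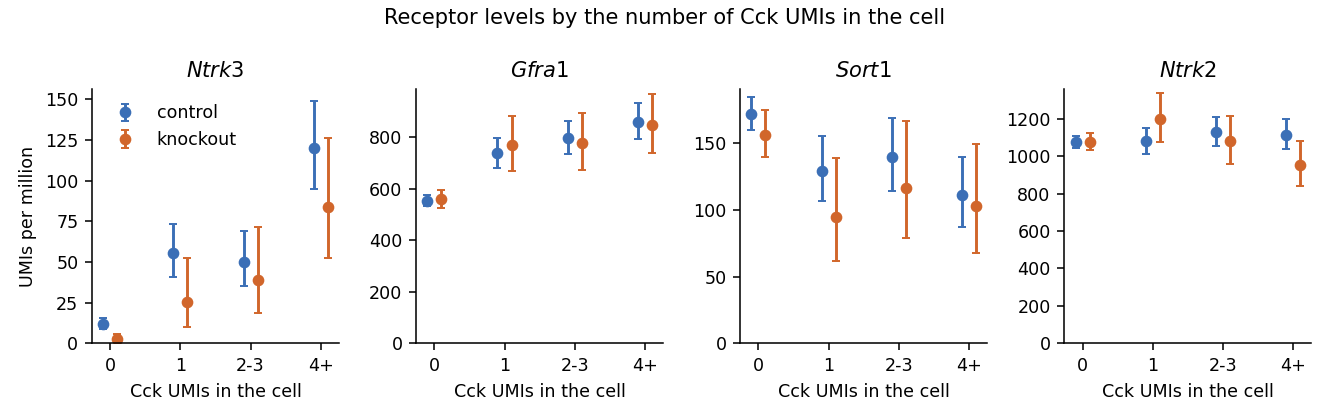
CPM of 4 receptors (y axes from 0) in cells grouped by their number of *Cck* UMIs (x axis), in each library, with 95% Poisson intervals. *Ntrk3* is lowest in cells without *Cck* and highest in cells with 4 or more in both libraries, *Gfra1* is lowest in cells without *Cck*, *Sort1* is highest there, and *Ntrk2* lies between 954 and 1200 in all groups.

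In *Grik1*-positive cells *Ntrk3* was scarce. Control *Grik1*-positive cells had 14 *Ntrk3* UMIs (10.2 CPM) against 203 in the others (38.9 CPM), a ratio of 0.261 (0.140 to 0.449). It was the only one past the fold there of the 4 genes with enough UMIs, against 6.82% of 8303 genes. Knockout *Grik1*-positive cells had 1 UMI and the others 43 (ratio 0.0967, 0.00239 to 0.568). *Gfra1* was higher in *Grik1*-positive cells of the control, with a ratio of 1.19 (1.11 to 1.28). In the knockout the ratio was 1.22 (1.09 to 1.37), but it was 0.939 in cells read as female and 1.47 in cells read as male. Of the 394 *Gfra1* UMIs in positive knockout cells, 50 were in 1 cell. After thinning, *Gfra1* was found in 52.9% of positive knockout cells (40.6% to 64.9%) and 60.0% of negative ones (54.4% to 65.4%). *Ntrk2* had ratios of 0.855 (control) and 0.942 (knockout). *Sort1* was at 1.14 and 1.12, with intervals that held 1 in both libraries. None of the 3 genes with enough knockout UMIs was past the fold, against 7.92% of 5225.

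Cells positive for *Chst8* or *Alkal2* were richer in *Ntrk2* and *Sort1*, less firmly so in the knockout. *Ntrk2* was at 1274 against 1024 CPM in the control (1.24, 1.18 to 1.31) and 1201 against 1032 CPM in the knockout (1.16, 1.07 to 1.26). In thinned cells the knockout ratio was 1.04. *Sort1* had ratios of 1.29 (1.12 to 1.47) and 1.27 (1.02 to 1.58), the latter 1.09 in cells read as female. Positive cells were also deeper, with medians of 6720.5 against 6059 UMIs in the control and 7869 against 6361 in the knockout. *Gfra1* was at 0.841 in the control and 0.993 in the knockout. *Ntrk3* was at 14.1 against 39.1 CPM in the control (0.360, 0.223 to 0.557). It was again the only one past the fold of the 4 with enough UMIs, against 6.40% of 8302 genes. In the knockout it was at 19.8 against 14.4 CPM (15 and 29 UMIs, ratio 1.37, 0.682 to 2.64), and 8 of the 15 UMIs were in 1 cell rich in respiratory genes. Without the respiratory-gene-rich cells, the knockout level was 11.6 CPM in the 82 remaining positive cells. Of 3 genes with enough knockout UMIs none was past the fold, against 8.06% of 5225. *Bdnf* had 8 UMIs in the 232 positive control cells and 6 in the 771 others (4.05-fold, 1.23 to 14.2) and 3 and 5 UMIs in the knockout. By *Cck*, positive and negative control cells had 3 and 11 *Bdnf* UMIs (0.514, 0.0921 to 1.95), and by *Grik1* 0 and 14. In the knockout these were 1 and 7 by *Cck* and 3 and 5 by *Grik1*. All of these *Bdnf* counts are far under the minimum of 100 UMIs and allow statements on detection only.

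Many cells had more than 1 marker, so cells with a single marker were compared as well. Cells with only *Cck* held 96.0 CPM of *Ntrk3* in the control (215 cells, 138 UMIs) and 47.0 CPM in the knockout (72 cells, 23 UMIs). Cells with only *Grik1* had 3 *Ntrk3* UMIs in 130 control cells and 0 in 43 knockout cells. Cells with only *Chst8* or *Alkal2* had 5 in 145 control cells and 0 in 51 knockout cells. Cells with none of the markers had 43 *Ntrk3* UMIs in 26 of 387 control cells (18.2 CPM, 13.1 to 24.5), above the droplet level, and 5 in 5 of 173 knockout cells (4.43 CPM). *Ntrk3* was thus mostly in cells with *Cck* and was scarce in cells that had another marker without *Cck*. It was also found in cells without any of the markers, in the knockout on 5 UMIs. In thinned control cells *Gfra1* was found in 81.5% of the 54 cells with *Ntrk3* (68.6% to 90.7%) and in 60.6% of the others (57.4% to 63.7%). In the knockout, 5 of 9 thinned cells with *Ntrk3* had *Gfra1*.

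In the cells rich in respiratory genes *Ntrk2*, *Gfra1* and *Sort1* took a smaller share of the UMIs in both libraries. In CPM, *Ntrk2* was at 0.569 of the level of the other cells in the control (0.522 to 0.619) and 0.633 in the knockout. *Gfra1* was at 0.647 and 0.626, and *Sort1* at 0.589 and 0.554. The number of UMIs per cell was not lower for *Ntrk2* and *Gfra1*, with control medians of 7 and 4 against 6 and 3 in the other cells. These cells were deeper, with median depths of 13556 (control) and 14508 UMIs (knockout). *Pcp4*, a calmodulin-binding peptide, was 8.80-fold higher in them in the control and 9.43-fold in the knockout. *Ntrk3* was at 0.509 in the control (16 UMIs in 78 cells) and 2.52 in the knockout (13 UMIs, 8 of them in 1 cell).

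Over all cells, *Ntrk2*, *Gfra1* and *Sort1* differed by little between genotypes. The ratio of knockout to control was 0.993 for *Ntrk2* (0.951 to 1.04), 0.987 for *Gfra1* (0.933 to 1.04) and 0.904 for *Sort1* (0.803 to 1.02). For *Ntrk2* and *Gfra1* the counting error thus leaves room for a difference of a few percent between these libraries. *Ntrk3* was at 0.484 (0.342 to 0.672) and was the 1 gene past the fold among the 4 with at least 100 UMIs. Of 9442 genes, 4.40% were past the fold and 1.66% were past it downwards. The median ratio of the 4 was 0.945 and that of all genes 1.00. The ratio of *Bdnf* was 1.36 on 14 and 8 UMIs (0.496 to 3.48), and that of *Gfra2* was 1.88 on 14 and 11 UMIs (0.770 to 4.45). No ratio was formed for *Ntf3*, *Ret* and *Ngfr*, which had at most 2 UMIs in either library.

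The lower *Ntrk3* value of the knockout was seen in *Cck*-positive cells (0.676, 0.464 to 0.963) and in *Cck*-negative cells (0.215, 0.0668 to 0.534, from 5 UMIs), and at 0.489 (0.3003 to 0.765) in cells with only *Cck*. It was not seen in every group of cells. The ratio was 1.40 (0.682 to 2.81) in cells with *Chst8* or *Alkal2*, 1.28 (0.646 to 2.45) in cells with more than 1 of the markers and 1.84 (0.813 to 4.07) in cells rich in respiratory genes, on 15, 16 and 13 knockout UMIs that include the 8 of 1 cell. Outside the cells rich in respiratory genes it was 0.371 (0.246 to 0.544) over all cells and 0.489 (0.309 to 0.744) in *Cck*-positive cells. The 39 knockout UMIs of all *Cck*-positive cells also include the 8 of that cell. *Cck*-positive cells were 32.3% of the control and 28.2% of the knockout cells. The sexes in the pools were not matched. In cells read as male from sex-chromosome genes *Ntrk3* was at 34.3 CPM in the control (702 cells) and 16.1 CPM in the knockout (194 cells), a ratio of 0.469 (0.289 to 0.729). In cells read as female it was at 20.9 CPM in the control (227 cells, 30 UMIs) and 16.3 CPM in the knockout (176 cells, 20 UMIs), a ratio of 0.781 (0.420 to 1.42), which is no longer past the fold. The interval for females includes both 1 and the value for males. The control females were 1 mouse, so mouse and sex cannot be told apart there. For *Sort1* the knockout to control ratio was 0.742 (0.605 to 0.908) in cells read as female. In cells read as male the *Sort1* ratio was 0.963 (0.822 to 1.13). These intervals overlapped, so no difference between the sexes could be shown.

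**Figure D5:**
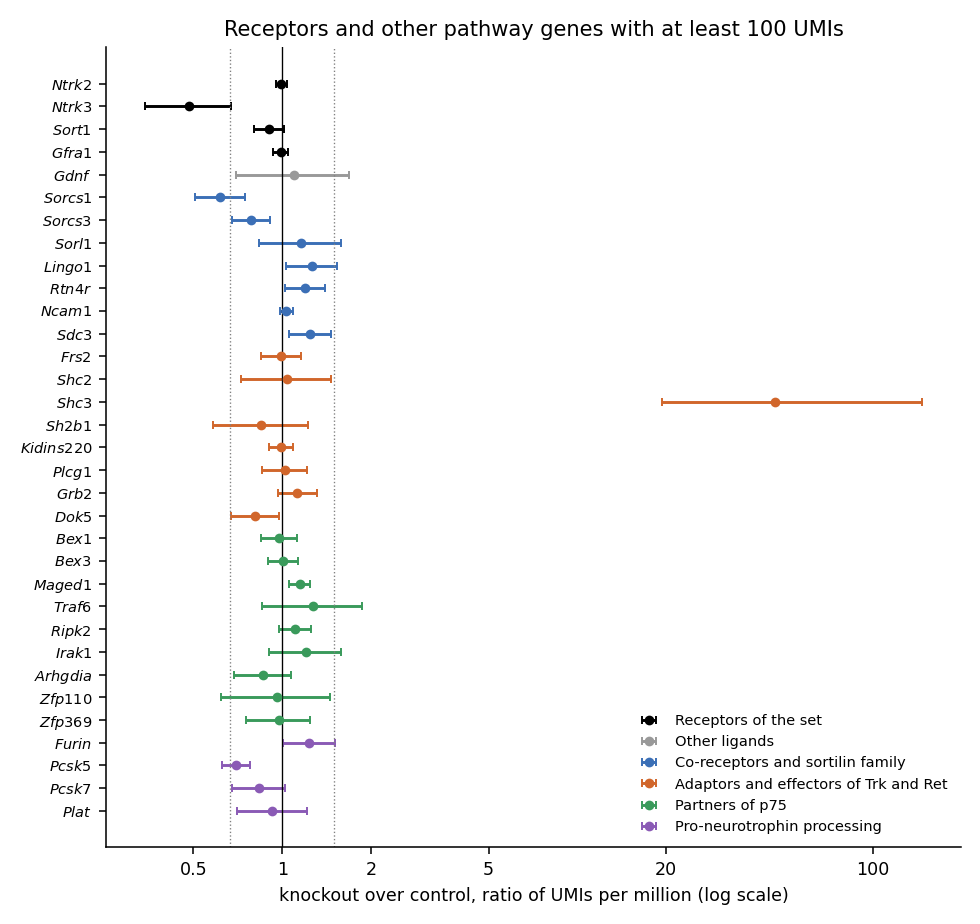
Ratio of knockout to control CPM (x axis, log scale) with exact 95% intervals, for the 4 receptors and the 29 other genes of the pathway list with at least 100 UMIs in both libraries together, coloured by role. Dotted lines mark 1.5-fold. *Ntrk3* and *Sorcs1* lie past it downwards and *Shc3* far past it upwards, and the points of all others lie between the lines.

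The wider pathway was followed in a list of 47 genes, of which 29 had at least 100 UMIs. Of these, 1 was past the fold upwards, 1 downwards and 27 were not past it, beside 4.40% of all 9442 genes past it in either direction. Their median ratio was 1.02. The gene past it upwards was *Shc3*, which encodes a neuronal adaptor that docks to activated Trk receptors. It had 5 UMIs in 5 control cells (0.757 CPM) and 98 UMIs in 68 knockout cells (35.4 CPM), a 46.8-fold difference (19.4 to 147). No knockout cell held more than 5 *Shc3* UMIs, and 17.4% of knockout cells had 1 or more, against 0.499% of control cells. The difference was seen in every marker group. Among knockout cells the level was 30.2 CPM with *Cck* and 37.6 CPM without, 44.7 and 33.2 CPM with and without *Grik1*, and 22.4 and 40.4 CPM with and without *Chst8* or *Alkal2*, while no control group had more than 4 UMIs. It was also at 34.3 CPM in knockout cells read as male and 35.1 CPM in those read as female, with 5 and 0 UMIs in the control. In droplets *Shc3* was at 0.459 (control) and 11.2 CPM (knockout). *Shc3* lies on chromosome 13 from 51431041 to 51569419 on the minus strand and overlaps no other counted gene.

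The other Trk and RET adaptors with enough UMIs lay inside the fold, though not all were close to 1. *Dok5* was at 0.810 (0.668 to 0.978), *Sh2b1* at 0.850 (0.583 to 1.22) and *Grb2* at 1.12 (0.964 to 1.31). Of the 8 with enough UMIs, 7 were not past the fold. *Kidins220*, a scaffold of Trk receptors and the most abundant, was at 238 and 236 CPM (0.990, 0.902 to 1.09). The related adaptor *Shc2* was at 17.1 and 17.7 CPM and *Shc1* at 9.54 and 11.9 CPM, the latter on 63 and 33 UMIs. *Frs2*, which couples Trk receptors and RET to MAP kinase, was at 85.0 and 84.2 CPM, and *Plcg1*, the phospholipase that binds Trk receptors, at 64.2 and 65.4 CPM.

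The gene past the fold downwards was *Sorcs1*, a sortilin relative and sorting receptor, at 76.8 CPM in the control (507 UMIs) and 47.4 CPM in the knockout (131 UMIs), a ratio of 0.617 (0.505 to 0.749). It was lower in the knockout in all 6 marker groups, for example at 132 against 84.3 CPM in cells with *Chst8* or *Alkal2*, where it was highest in both libraries. Its relative *Sorcs3* was at 108 and 85.0 CPM (0.784, 0.674 to 0.910). The other 6 co-receptors and sortilin relatives with enough UMIs, *Sorcs3* included, were not past the fold, and *Ncam1* was the most abundant (1.03, 0.981 to 1.09).

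All 9 partners of p75 had enough UMIs although p75 itself was not found, and none was past the fold. *Maged1*, which binds the receptor's intracellular part, was the most abundant in cells at 269 and 308 CPM (1.14, 1.05 to 1.24). Several of these genes had a higher CPM in droplets than in cells, *Maged1* among them at 495 and 462 CPM. Of the enzymes that cleave pro-neurotrophins, *Pcsk5* was the most abundant at 226 and 158 CPM in control and knockout cells (0.697, 0.625 to 0.776). *Furin* was at 44.2 and 54.6 CPM (1.23, 1.01 to 1.51), and *Mmp9* was at 0 UMIs in both.

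Of the other ligands only *Gdnf* reached 100 UMIs, at 10.6 (control) and 11.6 CPM (knockout) (1.09, 0.695 to 1.68). It was found in 6.38% and 6.92% of cells. Its droplet level was 9.64 CPM in the control, close to that of the cells, and 5.92 CPM in the knockout. The TrkB ligand *Ntf5* had 0 UMIs in both libraries. *Gfra4*, the most abundant of the other receptors in control cells, had 66 UMIs there (10.0 CPM) and 33 in the knockout (11.9 CPM), under the minimum. Its droplet level was higher, at 30.8 and 29.9 CPM. *Gfra3*, the artemin receptor, had 35 UMIs in 4 control cells and 57 UMIs in 6 knockout cells, with 34 and 52 of them in the 3 highest cells of each. It fell under the minimum of 100 UMIs and is named because of this concentration, after its values were seen.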

How the data were processed

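The authors deposited raw UMI counts per gene and barcode for all barcodes of 2 libraries, made with Cell Ranger and not normalised or filtered. The study's methods name Cell Ranger 7.1.0 with the mm10 reference, the matrix headers name version 4, and the submitters' processing notes name 8.0.1 and the build mm39. Whether intronic reads were counted, and on which strand, is not given in the sources used here. Overlapping genes are therefore uncertain. Positions and overlaps come from GENCODE M21 (GRCm38, the build of mm10) by Ensembl identifier, and which of the builds the counts were made on was not settled.

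The 9 genes and all lists were chosen with earlier results of these data known. Cells were barcodes with at least 2000 UMIs and 5 *Reln* UMIs. Counts were summed per library and divided by the sum outside mitochondrial (mt-) and ribosomal protein genes (Rpl, Rps and Mrp prefixes). Ratios have exact conditional Poisson intervals and shares have Clopper-Pearson intervals (95%, Python 3.11.15, scipy 1.17.1), and a count of 0 was given an upper limit of 3 counts. PCR duplicates are removed by UMIs, but cells of 1 pool are not replicates, so no test was made. Cells were thinned without replacement to 2000 UMIs. All 9 genes are named for their levels over all cells and between genotypes. In the comparisons between groups of cells only *Ntrk2*, *Ntrk3*, *Gfra1*, *Sort1* and, by marker, *Bdnf* are named. The others had at most 14 UMIs in either library. Of the pathway list those past 1.5-fold with at least 100 UMIs and the most abundant of each role are named, and others given beside them, such as *Shc1*, *Shc2*, *Frs2*, *Plcg1*, *Sorcs3*, *Furin* and *Gfra3*, were added after their values were seen. Doublets were kept, and removed only in an alternative (Scrublet in scanpy 1.11.5, in place of the study's DoubletFinder, 8 control cells and 1 knockout cell). Alternatives were other totals, subtraction of free RNA, means per cell, other cell thresholds, quality limits at 3 median absolute deviations, and cells of 1 sex. Leaving out the 3 cells with most UMIs of a gene was added after seeing the data. The scripts were tested on simulated data.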

Additional observations from a re-analysis of the deposited data

Results flagged for a closer look

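Barcodes with at least 2000 UMIs but under 5 *Reln* UMIs were left out of the comparisons, and *Ntrk2* stood out in those of the knockout. The 16 such knockout barcodes held 39 *Ntrk2* UMIs (823 CPM) in 10 of them, with 11 in the highest, and the 8 such control barcodes held 4 (109 CPM). The astrocyte markers summed to 2554 CPM in the 16 barcodes and to 1088 CPM in the 8, and the mural markers to 1182 and 0 CPM. The part of these cell types in the *Ntrk2* value was not tested. *Gfra1* had 6 UMIs in the 16 barcodes and 0 in the 8.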

How the results depend on the processing

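No paired analysis was possible because each genotype is 1 library, and for the same reason no replicate could be left out. No ratio changed direction past the fold under any alternative. The knockout against control count of 1 gene past 1.5-fold (*Ntrk3*) was 0 in cells read as female, and the *Ntrk3* ratio ranged from 0.331 (thinned cells) to 0.781 (females). Without the 3 cells with most *Ntrk3* UMIs in each library it was 0.363. For *Cck* in the control, the count of 1 was 2 with the mean of CPM per cell, with thinned cells and in females. The added gene was *Gfra1*, at 1.54, 1.68 and 1.59. For *Cck* in the knockout, *Sort1* lay at the limit. It made the count of 0 into 1 with the total of all UMIs, without the top cell or the top 3 cells, without likely doublets, and in males. *Gfra1* did so with the mean of CPM per cell (1.51) and in females (1.63). For *Chst8* or *Alkal2* the control count of 1 was 3 in females, and the knockout count of 0 was 1 when positive cells needed 2 UMIs. The pathway count of 2 was 6 with no minimum of UMIs. Shares depend on depth by construction. With 3000 UMIs per cell they were 91.7% and 93.3% for *Ntrk2* (control and knockout), 74.1% and 70.8% for *Gfra1*, and 35.0% and 33.1% for *Sort1*. Without thinning they were 98.3% and 99.5%, 85.3% and 89.0%, 54.9% and 52.3%, and 10.2% and 6.41% for *Ntrk3*. Another random draw gave 63.8% for *Gfra1* in the knockout, where the reported thinned shares were 58.7% in the knockout and 61.7% in the control. Thinned shares there are thus uncertain by at least as much as they differ between libraries. Where no construction explains a change, the cause was not tested. Of the other values, 358 stayed within the interval of the reported value and 34 did not. Depth limits *Bdnf*, *Gfra2*, *Ntf3* and *Ret* to statements on detection.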
